A study of Mus musculus with 12 samples.

Results

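Transcripts of 10 epithelial junction and adhesion genes were examined in day 7 thymic epithelium/stroma: Epcam and Cdh1 of cell adhesion, Cldn3, Cldn4, Cldn7, Ocln and Tjp1 of the tight junction, and Dsp, Dsg2 and Perp of the desmosome. They were listed by name, with earlier results of these data known. Each was read from its brightest probe set that carries a single gene symbol, and 10 of the 19938 genes named on the arrays are described. All 10 had 1 such probe set. The tissue came from pups of the FCG mouse, a line in which gonadal sex and sex chromosomes are inherited apart, on a C57BL/6J background, in which every animal that has a Y chromosome carries it without Sry and gonadal males carry Sry as an autosomal transgene. There were 3 arrays of XXF (XX, ovaries), 3 of XYF (XY, ovaries), 4 of XXM (XX, Sry transgene, testes) and 2 of XYM (XY, Sry transgene, testes), all from pups of day 7 for which no treatment is named. The model is limited by the several copies of the transgene, and thymocytes were pressed out of the gland and the remnant washed repeatedly before RNA was taken. Neither the labels nor the methods say whether an array held the RNA of 1 pup, so p-values measure only the spread between these arrays.

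Epithelial cells are held to each other by several kinds of contact. Tight junctions seal the space between cells with claudins and occludin, anchored inside the cell by scaffold proteins such as ZO-1 (Tjp1), whereas adherens junctions tie the actin skeleton of neighbouring cells together through E-cadherin (Cdh1) and desmosomes tie their keratin filaments. In the thymus the epithelium forms an open network rather than a sheet, its cells are joined by desmosomes, and EpCAM is the surface protein by which they are usually told from other stroma.

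The tissue held epithelium and much else. All 14 measured markers of thymic epithelium lay above the signal reference, a signal of 309.5 that is the 95th percentile among 1035 probe sets for olfactory receptors; Krt8 had a mean signal of 6433 and Psmb11 of 1545. All 15 measured thymocyte markers lay above it as well, with Cd3e at a mean signal of 4209, as did 9 of 9 mesenchymal and 9 of 9 endothelial markers. The first principal component took 32.5% of the variance and set arrays 9 to 12 (scores of 8.18 to 28.3) apart from arrays 1 to 8 (-15.7 to -1.91). The array numbers are those of the labels, but neither the labels nor the methods name sets of arrays. Sets of 4 consecutive numbers were chosen here with earlier results of these data known, in which arrays 9 to 12 stood apart. Each set held 2 arrays of gonadal males and 2 of gonadal females. The sets were not balanced by chromosome complement. Among arrays 5 to 8 the only XY array was XYF array 8, and XYM was absent. Differences by complement and between XYM and other genotypes are therefore partly mixed with differences between the sets. Results that follow these sets are given with and without them.

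Sequences upstream of the genes are shown because Snail, Slug and ZEB proteins, known repressors of epithelial genes, bind the E-box CACCTG, which reads CAGGTG on the opposite strand, while grainyhead-like proteins, known activators of them, bind AACCGG, which reads CCGGTT on the opposite strand. In the 250 bases before each transcription start in RefSeq's table for GRCm38.p6, the E-box was found in 17.2% and the grainyhead-type letters in 5.62% of 32851 windows. Starts were found for 7 of the 10 genes, with 9 windows in all; Cdh1, Dsg2 and Perp were not matched. The windows of Epcam (chr17:87635729-87635978, plus strand), Cldn4 (chr5:134946935-134947184, minus strand) and Dsp (chr13:38151044-38151293, plus strand) are printed 5′ to 3′ for an adhesion, a tight junction and a desmosome gene, with each match in capitals.
Epcam: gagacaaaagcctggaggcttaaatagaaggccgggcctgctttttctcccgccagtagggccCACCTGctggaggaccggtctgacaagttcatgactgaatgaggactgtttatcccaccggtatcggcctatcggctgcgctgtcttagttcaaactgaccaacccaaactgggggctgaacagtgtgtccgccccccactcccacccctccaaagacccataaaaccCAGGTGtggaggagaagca
Cldn4: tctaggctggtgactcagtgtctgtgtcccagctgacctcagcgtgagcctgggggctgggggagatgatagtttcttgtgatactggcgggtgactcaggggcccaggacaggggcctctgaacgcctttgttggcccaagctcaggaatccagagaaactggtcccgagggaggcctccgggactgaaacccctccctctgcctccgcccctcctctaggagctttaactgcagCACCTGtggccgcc
Dsp: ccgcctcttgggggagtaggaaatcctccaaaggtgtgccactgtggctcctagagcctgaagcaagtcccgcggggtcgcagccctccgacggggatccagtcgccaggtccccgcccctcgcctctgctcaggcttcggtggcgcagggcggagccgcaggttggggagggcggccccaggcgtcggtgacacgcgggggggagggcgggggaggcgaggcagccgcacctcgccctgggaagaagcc
Epcam thus held 2 E-boxes and Cldn4 held 1, and the Dsp window held neither motif. Neither motif was found in the windows of Cldn3 and Tjp1. Cldn7 and Ocln have 2 starts each, of which 1 held 2 E-boxes and 1 grainyhead-type match and the other none, and no matches overlapped. A match is a string of letters, and no binding was measured.

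Of the adhesion genes, Epcam, which encodes a surface protein of epithelial cells that binds claudin-7, had signals of 891, 836 and 637 on the XXF arrays (numbers 3, 7 and 11), 946, 763 and 567 on the XYF arrays (4, 8 and 12), 849, 707, 915 and 529.7 on the XXM arrays (2, 5, 6 and 10), and 1006 and 806 on the XYM arrays (1 and 9). In each genotype the array from numbers 9 to 12 was the lowest, and the genotypes overlapped. Cdh1, which encodes E-cadherin, the main adhesive protein of the adherens junction, had signals of 1593, 1539.9 and 1234 in XXF, 1552, 1615 and 1321 in XYF, 1520.2, 1476, 1430.3 and 1152 in XXM, and 1688 and 1280.05 in XYM, in the same order of arrays. For Cdh1 the 4 arrays numbered 9 to 12 lay below all the other 8, whichever genotype they came from, which held for 1 of the 10 genes and for 5.82% of all probe sets.

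Among the claudins, which form the strands of the tight junction, Cldn3 had signals of 254, 262 and 255 in XXF, 234, 270.2 and 262 in XYF, 216, 265, 258 and 274 in XXM, and 239.7 and 275 in XYM. Every value was below the signal reference, within the range of olfactory receptor probe sets. Cldn4 was at 707, 616 and 766 in XXF, 755, 635 and 697 in XYF, 714, 597, 549 and 721 in XXM, and 729 and 714 in XYM; here the 4 arrays numbered 5 to 8 were the lowest, a pattern that 1 of the 10 genes and 1.53% of all probe sets had. Cldn7, the partner of EpCAM at the lateral membrane, was at 441, 401 and 446 in XXF, 430.4, 419 and 496 in XYF, 397, 428, 408 and 483 in XXM, and 488 and 527 in XYM. The XYM arrays were among the 3 highest for Cldn7, with XYF array 12 between them.

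Ocln encodes occludin, a membrane protein that takes part in closing the tight junction. Its signals were 157, 152 and 153 in XXF, 157, 166 and 135 in XYF, 153, 168, 153 and 152 in XXM, and 211 and 181 in XYM. Both XYM arrays therefore lay above all the other 10, although every value was below the signal reference and below the 90th percentile of olfactory receptors (231.9). Such a separation of XYM was seen for 1 of the 10 genes and for 0.835% of all probe sets. Tjp1, which encodes the scaffold ZO-1, had signals of 781, 708 and 616 in XXF, 856, 659 and 614 in XYF, 641, 671, 706 and 658 in XXM, and 741 and 566 in XYM, and the genotypes overlapped.

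Of the desmosome genes, Dsp, which encodes desmoplakin, the link to keratin filaments, had signals of 3891, 3764 and 2879 in XXF, 3896, 3913 and 3335 in XYF, 3587, 4125, 3301 and 3042 in XXM, and 3618 and 3218 in XYM. Dsg2, a cadherin of the desmosome, was at 1088, 927 and 816 in XXF, 1149.9, 1029 and 889 in XYF, 948, 956, 878 and 740.3 in XXM, and 1164 and 907 in XYM. Within each set of 4 arrays every XY array had a higher Dsg2 signal than every XX array, as was the case for 1 of the 10 genes and for 1.01% of all probe sets. Perp, a tetraspan protein that desmosomes of stratified epithelia need, was at 1257, 1059 and 1007 in XXF, 1188, 1127 and 1051 in XYF, 1092, 1236, 982 and 1141 in XXM, and 1243 and 927 in XYM, with no genotype apart.

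**Figure D1:**
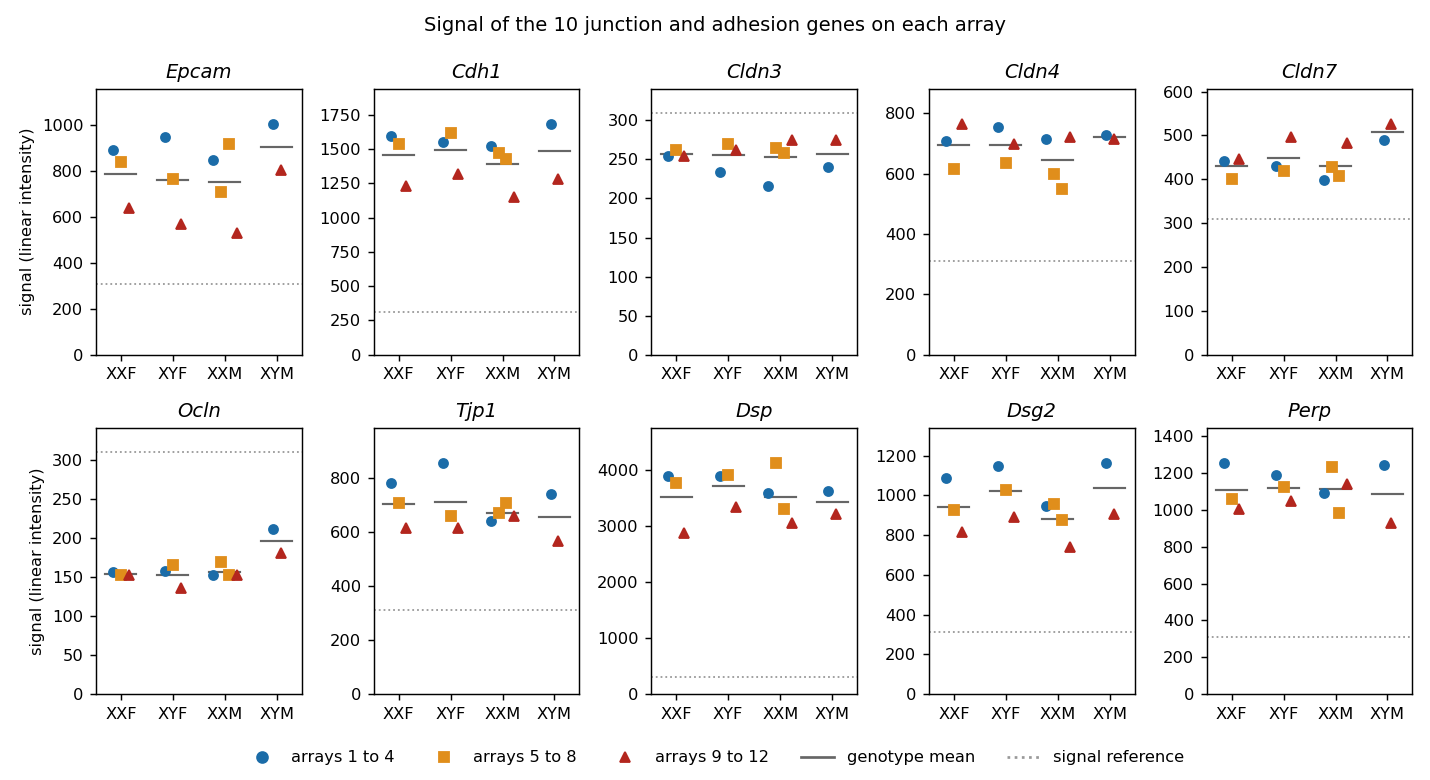
Signal (linear intensity, axis from 0) of each gene on the 12 arrays by genotype, with 1 panel per gene. Points are single arrays, coloured by array set, bars are genotype means and the dotted line is the signal reference of 309.5; 8 of the 10 genes lie above it, Cldn3 and Ocln lie below, and the XYM points of Ocln (211 and 181) stand above all others.

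In all, 8 of the 10 genes had a mean signal above the reference. Probe sets differ in how well they bind, so no order of abundance between genes is read from these signals. The genes above it numbered 9 with the 90th percentile of olfactory receptors, 7 with the 99th (458.8), where Cldn7 was lost, and 9 with the 95th percentile of vomeronasal receptors (172.9).

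Whether gonadal sex or the sex chromosome complement altered the junction genes was asked by fitting the 4 genotype means with limma, with Benjamini-Hochberg adjustment over all 35556 probe sets. By gonadal sex, male minus female, 0 of the 10 genes had an adjusted p under 0.05, against 0.00281% of all probe sets, and 1 had an unadjusted p under 0.05, against 3.03%. This was Ocln, with a log2 difference of 0.19 ± 0.07 (SE; unadjusted p = 0.0182, adjusted p = 0.985, limma). The exact two-sided permutation test over the 924 ways to choose 6 of 12 arrays gave p = 0.16 for Ocln, and 3 of the 6 male arrays exceeded all female arrays. It compares plain means over arrays, with a log2 difference of 0.14 for Ocln. There XXM counts for more than XYM, whereas the limma contrast weighs the genotypes alike. The other 9 genes had log2 differences between -0.09 (Tjp1) and 0.10 (Epcam). Over the 10 genes the 95% intervals reached from 0.803-fold to 1.38-fold, and the median log2 difference was -0.03, beside -0.02 over the 11272 genes above the signal reference; without XYM array 1 it was -0.07 and without XYM array 9 it was 0.05.

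By chromosome complement, XY minus XX, 0 of the 10 genes had an adjusted p under 0.05, against 0.0366% of all probe sets, and 1 had an unadjusted p under 0.05, against 2.55%. Ocln again was that gene, at 0.15 ± 0.07 (SE; unadjusted p = 0.0491, limma), followed by Cldn7 at 0.15 ± 0.07 (SE; unadjusted p = 0.058, limma) and Dsg2 at 0.17 ± 0.11 (SE; unadjusted p = 0.136, limma). The exact two-sided permutation test over 792 groupings gave p = 0.258 for Ocln, 0.0821 for Cldn7 and 0.119 for Dsg2. It again compares plain means over arrays, with log2 differences of 0.12, 0.14 and 0.18 in the same order. In total 8 of the 10 genes had a log2 difference above 0, with a median of 0.07, while 41.9% of the genes above the signal reference did, with a median of -0.01. The median of the 10 genes was 0.02 without XXF array 11 and 0.11 without XYM array 9. Without XYM array 1 the difference was 0.10 for Ocln and 0.08 for Dsg2, and without XYM array 9 it was 0.21 and 0.26. The intervals reached from 0.838-fold to 1.39-fold. Values of cell type markers in this contrast are given as a description, and no marker had an adjusted p under 0.05 (limma). Of the thymocyte markers 0 of 15 were above 0, their median log2 difference was -0.10, and their summed signal was between 49572 and 54026 on XX arrays but between 47379 and 48484 on XY arrays. For thymic epithelial markers 11 of 14 were above 0, with a median of 0.06 and sums of 35911 to 45961 and 38742 to 44121. The numbers above 0 were 9 of 9 for endothelial markers (median 0.14), 2 of 9 mesenchymal (-0.13), 5 of 9 macrophage and dendritic cell (0.06), 2 of 4 B cell (0.0038) and 3 of 3 parathyroid markers (0.38). The summed endothelial signal was 9108 to 11332 on XX and 10000.1 to 13155 on XY arrays, the mesenchymal 14116 to 20231 and 14186 to 18429, and the parathyroid 711 to 1568 and 975.4 to 1892. The part of any of them in the values of the junction genes was not tested, and in such a mixed tissue fewer cells of a type and less RNA per cell cannot be told apart.

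With the 3 array sets as a block the standard errors were smaller for all 10 genes, by sex and by complement. Because the sets were chosen with these data known, unadjusted p-values of this fit are given as a description. The adjusted count stayed at 0 of 10 for sex, against 0.00281% of all probe sets, and for complement, against 0.0394%. At an unadjusted p under 0.05 the block gave 1 gene for sex (Ocln, adjusted p = 0.386, limma), against 11.5%, and 4 for complement, against 6.9%. The 4 were Dsg2 (log2 difference 0.19 ± 0.04, SE), Ocln (0.17 ± 0.06, SE), Cldn7 (0.13 ± 0.05, SE) and Cdh1 (0.10 ± 0.04, SE), with adjusted p-values of 0.675 for Dsg2 and 0.718 for each of the other 3 (limma). The Dsg2 difference by complement was 0.19 within arrays 1 to 4, 0.16 within arrays 5 to 8 and 0.21 within arrays 9 to 12. For Cdh1 these values were 0.06, 0.13 and 0.13, for Cldn7 they were 0.13, 0.02 and 0.14, and for Ocln, highest in the first set, 0.23, 0.07 and 0.04. By complement 6 of the 10 genes were above 0 in all 3 sets and 0 were below it in all 3. By sex 3 were above 0 in all 3 sets and 2 below. The share of all probe sets that keep the same sign in all 3 sets was not computed. These counts therefore only describe the genes. By complement, the XY side within arrays 5 to 8 was XYF array 8 alone.

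**Figure D2:**
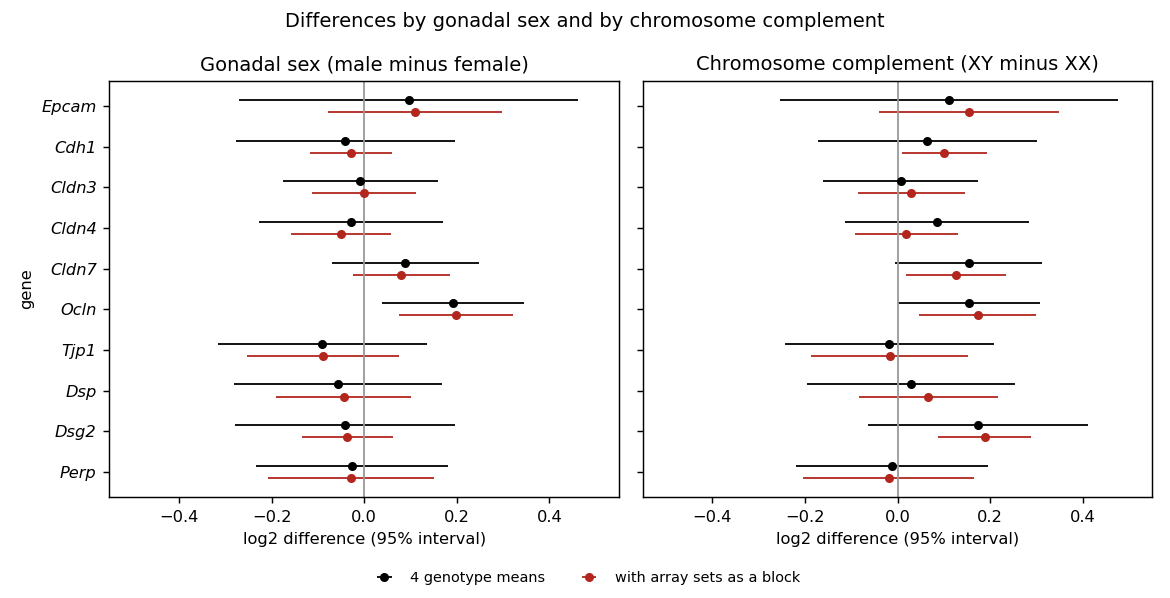
Log2 differences with 95% intervals of the 10 genes for gonadal sex (left) and chromosome complement (right), from the 4-genotype model (black) and from a fit that also blocks on array set (red). The Ocln intervals lie above 0 in both panels, and the block narrows the Dsg2 interval for complement around 0.19; no gene had an adjusted p under 0.05.

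Between single genotypes, limma gave an adjusted p under 0.05 to 0 of the 10 genes in every contrast; the shares of all probe sets called were 0.0169% for XYF minus XXF, 0.0197% for XYM minus XXM, 0.00281% for XXM minus XXF and 0.00562% for XYM minus XYF. At an unadjusted p under 0.05 there were 0 genes for XYF minus XXF (against 0.951%), 2 for XYM minus XXM (3.41%), 0 for XXM minus XXF (1.45%) and 1 for XYM minus XYF (3.14%). These were Ocln, at 0.32 ± 0.10 (SE) against XXM and 0.36 ± 0.11 (SE) against XYF, and Cldn7, at 0.25 ± 0.11 (SE) against XXM. Without XYM array 1 the Ocln differences were 0.21 and 0.25, and without XYM array 9 they were 0.43 and 0.47. By contrast Ocln differed by -0.01 ± 0.10 (SE) between XYF and XXF and by 0.02 ± 0.09 (SE) between XXM and XXF. The interaction of sex and complement was 0.33 ± 0.14 (SE) for Ocln, the only gene of the 10 with an unadjusted p under 0.05 (1.54% of all probe sets), and 0 of 10 passed after adjustment (0.0% of all probe sets). The F test over the 4 genotypes likewise gave 1 gene at an unadjusted p under 0.05, Ocln (1.99% of all probe sets), and 0 after adjustment (0.0281%). With the array sets as a block, in which far more probe sets had an unadjusted p under 0.05, the genes below it were 5 for XYM minus XXM (Epcam, Cdh1, Cldn7, Ocln and Dsg2; 9.73% of all probe sets), 2 for XYM minus XYF (Epcam and Ocln; 12.5%), 2 for the interaction (Epcam and Ocln; 6.4%), 2 for the F test (Ocln and Dsg2; 7.61%) and 0 for XYF minus XXF (3.27%) and XXM minus XXF (4.02%).

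The array sets, which were chosen with these data known, went with much of the variation of 8 of these genes. Over all 10 they took a median of 66.2% of the variance of a gene over the 12 arrays, beside 50.4% for the genes above the signal reference, and genotype took 10.7%, beside 17.4%. Cdh1 was the gene that followed the sets most closely, at 84.2%, and Cldn4 came next at 83.6%. Below the 50.4% of other genes were Perp, at 41.3%, and Ocln, with 10.5% for the sets and 69.0% for genotype. Sets and genotypes overlap in part, so these shares do not add up.

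On arrays 9 to 12 the claudins lay higher and the other 7 genes lower than on arrays 1 to 8. Epcam was lower by a log2 difference of -0.46, Cdh1 by -0.32, Dsg2 by -0.28, Dsp by -0.27 and Tjp1 by -0.23. Perp was at -0.15 and Ocln at -0.08. Of the claudins, Cldn3 was higher by 0.10, Cldn4 by 0.14 and Cldn7 by 0.19. This was not a trait of all claudins. Of those in the wider tight junction list, Cldn1 was at -0.38 and Cldn8 at -0.26. Cldn2 was at 0.10, Cldn6 at 0.27, Cldn10 at 0.08, Cldn12 at 0.07 and Cldn23 at 0.25. The Cldn4 difference came from the low arrays 5 to 8, since its mean signal was 726 on arrays 1 to 4, 599 on arrays 5 to 8 and 724 on arrays 9 to 12. Over the 11272 genes above the signal reference the median was -0.05, with 63.0% below 0, the 5th percentile at -0.29 and the 95th at 0.22, so that Epcam and Cdh1 fell outside this range and the other 8 genes within it. The summed thymic epithelial markers were 37492 to 45961 on arrays 1 to 8 and 35911 to 40890 on arrays 9 to 12, the thymocyte markers 47379 to 53014 and 47957 to 54026, and the 3 parathyroid markers 996 to 1892 and 711 to 1222. The part of any of these in the values of the junction genes was not tested.

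**Figure D3:**
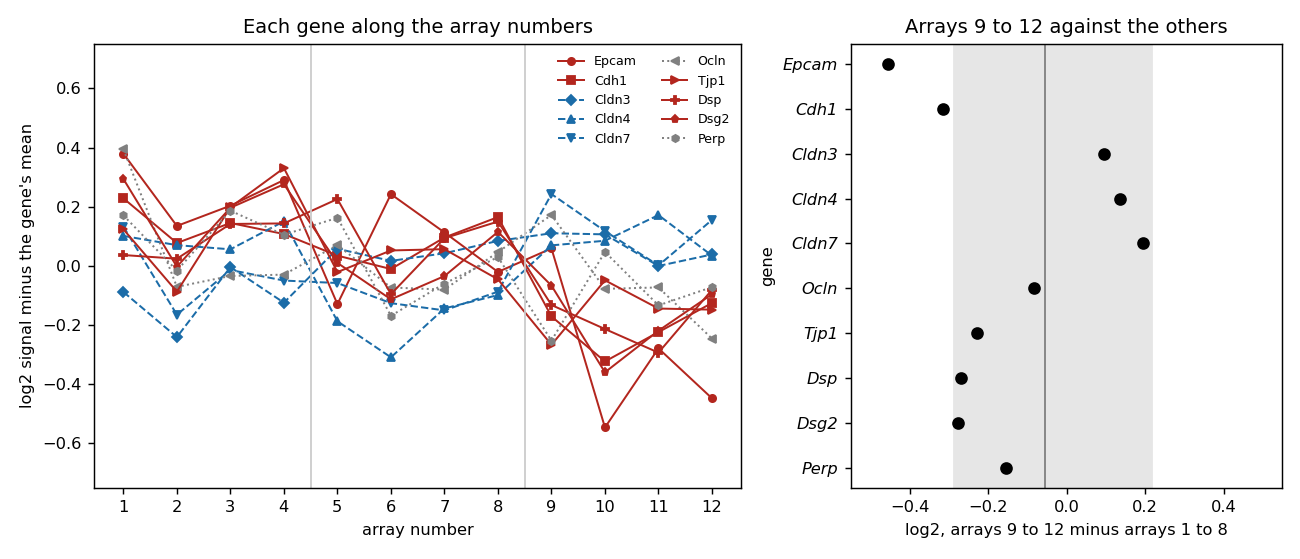
Left, log2 signal of each gene minus its own mean along the array numbers, with grey lines between the array sets; Epcam, Cdh1, Tjp1, Dsp and Dsg2 are red, the claudins blue and Ocln and Perp grey. Right, log2 difference of arrays 9 to 12 from arrays 1 to 8, with the 5th to 95th percentile of the genes above the signal reference shaded and their median as a line; Epcam (-0.46) and Cdh1 (-0.32) lie outside the shading and the 3 claudins lie above 0.

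Co-variation was measured as the correlation of log2 signal over the 12 arrays for all 45 pairs of genes. The median Pearson r was 0.20, beside 0.10 for all pairs of genes above the signal reference; it was 0.06 without XYM array 1 and 0.27 without XYM array 9. Single pairs ranged from -0.51 (Epcam and Cldn3) to 0.89 (Cdh1 and Dsg2). By permutation with 100000 resamples and Benjamini-Hochberg adjustment over the 45 pairs, 5 pairs had an adjusted p under 0.05 by Pearson's r and 1 by Spearman's rho, and 11 had an unadjusted p under 0.05 by Pearson's r. The 5 were Cdh1 with Dsg2, Dsp and Epcam, and Dsg2 with Epcam and Dsp. Cdh1 and Dsg2, a cadherin of the adherens junction and a cadherin of the desmosome, had r = 0.89 (permutation p = 9e-05, adjusted p = 0.00405) and rho = 0.92 (permutation p = 7e-05, adjusted p = 0.00315). Their r was 0.78 without the 2 arrays farthest from the median of Cdh1, 0.83 with the mean of each array set subtracted and 0.81 over arrays 1 to 8. The p-values above came from shuffling all 12 arrays, so they also measure differences between the sets. With set means subtracted and values shuffled within sets, Cdh1 and Dsg2 had no adjusted p under 0.05.

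The other 4 pairs had adjusted permutation p-values of 0.0236 to 0.0374 by r and of 0.0673 to 0.0845 by rho, and r of 0.56 to 0.68 without the 2 arrays farthest from the median. With set means subtracted, r went from 0.83 to 0.42 for Cdh1 and Dsp, from 0.79 to 0.25 for Epcam and Cdh1, from 0.78 to 0.36 for Epcam and Dsg2, and from 0.75 to 0.58 for Dsp and Dsg2. Over arrays 1 to 8 these pairs had r of 0.25, 0.35, 0.48 and 0.37. After subtraction 0 of the 45 pairs passed the adjusted permutation test within sets, and over all arrays the number that passed, 5, became 3 without XYM array 1, 2 without XXM array 2, XXF array 3 or XYF array 4, 1 without XXF array 11 and 0 without XXM array 10. The 10 pairs among Epcam, Cdh1, Tjp1, Dsp and Dsg2, a grouping chosen after the values were seen, had a median r of 0.71 over all arrays, 0.18 with set means subtracted and 0.36 over arrays 1 to 8. Their 15 pairs with Cldn3, Cldn4 and Cldn7 had a median r of -0.34 over all arrays, but of 0.31 with set means subtracted and 0.45 over arrays 1 to 8. The sign of this relation therefore rested on the sets. Among claudins of the wider tight junction list, r with Cdh1 over all arrays ran from -0.89 for Cldn23 to 0.76 for Cldn1. Epcam and Perp, at 0.20 over all arrays, were at -0.70 with set means subtracted.

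**Figure D4:**
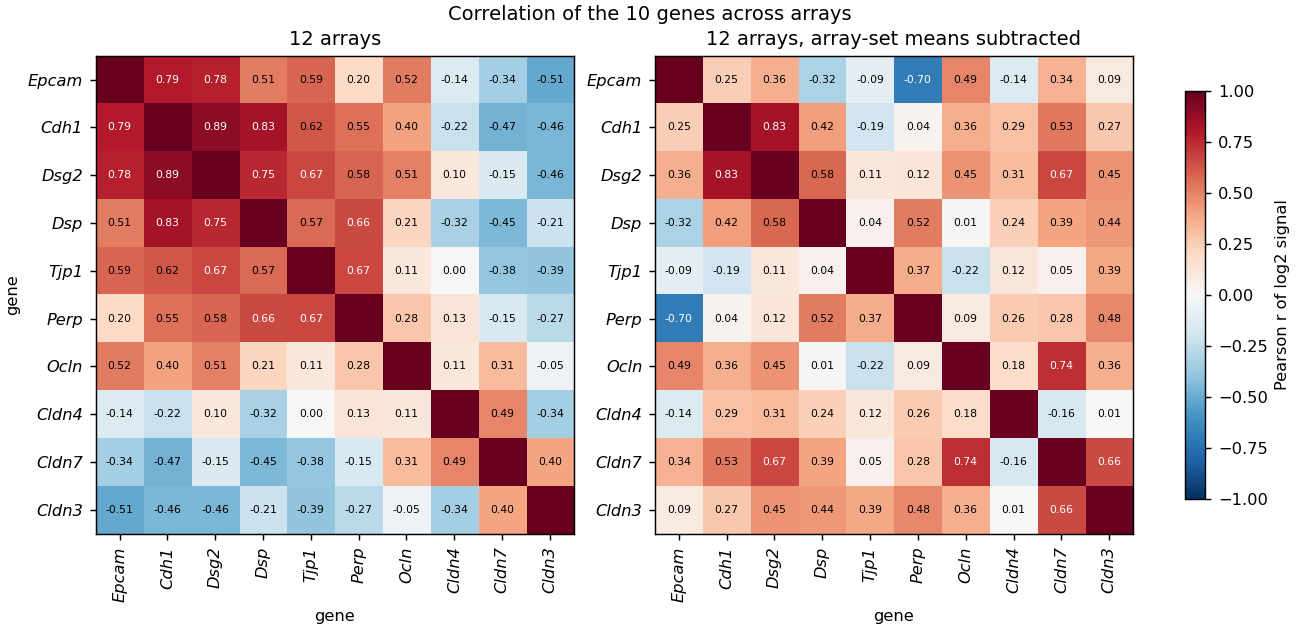
Pearson r of log2 signal for each pair of the 10 genes over the 12 arrays (left) and after the mean of each array set was subtracted (right), from blue (-1) to red (1). Cdh1 and Dsg2 are at 0.89 on the left and 0.83 on the right, whereas the blue block between the claudins and Epcam, Cdh1, Dsp and Tjp1 on the left is mostly red on the right.

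The genes outside all lists whose pattern was most like that of Epcam, among 11156 compared over 12 arrays, were Rnf130 (r = 0.94), Itm2b (0.94), Tmem168 (0.93), Arpc5 (0.93) and Llph (0.92). For the mean of the z-scored values of the 8 genes above the reference they were Ryk (r = 0.96), Pogk (0.96), Vcam1 (0.95), Lima1 (0.95) and Laptm4a (0.95). With set means subtracted these r were between 0.82 and 0.92. They are given as a description, since arrays share the sets.

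Other genes of the same structures were read from lists chosen by function, and in each of the 8 lists 0 genes had an adjusted p under 0.05 for sex or for complement (limma). The shares of all probe sets were 0.00281% for sex and 0.0366% for complement. At an unadjusted p under 0.05 these shares were 3.03% and 2.55%, beside which the counts below are to be read. Of 20 measured tight junction genes 9 lay above the signal reference, and at an unadjusted p under 0.05 there was 1 for sex and 1 for complement: Marveld2, which encodes tricellulin, at 0.20 ± 0.07 (SE, male minus female) and a mean signal of 207, below the reference, and F11r, which encodes the junctional adhesion molecule JAM-A, at 0.20 ± 0.09 (SE, XY minus XX). Of 12 adherens junction genes 10 lay above the reference and 0 had an unadjusted p under 0.05. Among them Ctnnb1, which encodes the catenin that binds the tail of E-cadherin, had a mean signal of 3368 ± 246 (SD, n = 12 arrays) and Jup, which encodes plakoglobin of both adherens junctions and desmosomes, of 1854 ± 133 (SD, n = 12 arrays).

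Of 9 further desmosome genes 6 lay above the reference and 0 had an unadjusted p under 0.05. Dsc2 and Dsc3, the desmosomal cadherins that pair with desmogleins, had mean signals of 801 ± 109 and 802 ± 141 (SD, n = 12 arrays), lay lower on arrays 9 to 12 than on arrays 1 to 8 by log2 differences of -0.31 and -0.51, and had r of 0.94 and 0.88 with Cdh1. The list as a whole was mixed: 5 of the 9 lay lower on arrays 9 to 12, the median of that log2 difference was -0.09, and r with Cdh1 ran from -0.79 for Pkp3 to 0.94 for Dsc2, with 6 above 0. Of 7 genes of the hemidesmosome and laminin-332, which fix epithelium to its basement membrane, all lay above the reference and 1, the integrin gene Itgb4, had an unadjusted p under 0.05, at 0.17 ± 0.06 (SE, XY minus XX). All 7 of these had a log2 difference above 0 by complement, with a median of 0.14, beside the 41.9% of genes above the signal reference given earlier. This was not particular to them. The count was 7 of 7 for partners and proteases of EpCAM (median 0.08), 16 of 20 for tight junction genes and 11 of 14 for epithelial regulators. It was 8 of 12 for adherens junction genes, 5 of 9 for further desmosome genes, 4 of 6 for other cadherins and 2 of 6 for repressors. Of 7 partners and proteases of EpCAM 5 lay above the reference and 1 had an unadjusted p under 0.05, Spint1, which encodes an inhibitor of membrane serine proteases, at 0.15 ± 0.06 (SE, XY minus XX).

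Regulators of epithelial genes lay above the reference for 8 of 14, and 0 of the 14 had an unadjusted p under 0.05. Esrp1, an epithelial splicing regulator, and Trp63, the p63 gene of basal epithelium, followed Cdh1 over the arrays with r of 0.94 and 0.91, and lay lower on arrays 9 to 12 by log2 differences of -0.29 and -0.21. Of all 14, however, 5 lay lower on arrays 9 to 12 and 5 had an r above 0, the median log2 difference of the list was 0.03 and its median r -0.03. Foxn1, the regulator of thymic epithelial identity, had an r of -0.02 and a log2 difference of 0.09, and the lowest r was that of Elf3, at -0.72. Of 6 repressors of junction genes 4 lay above the reference and 0 had an unadjusted p under 0.05. Zeb1, whose product binds the E-box printed above, had a mean signal of 2253 ± 165 (SD, n = 12 arrays) and an r of 0.38 with Cdh1, while Snai2 (Slug) had an r of 0.78 and Snai1 (Snail) of -0.67. Snai1 was at 0.20 and Snai2 at -0.27 in the log2 difference of arrays 9 to 12 from arrays 1 to 8. Of 6 other cadherins 4 lay above the reference and 0 had an unadjusted p under 0.05. These r are descriptions over 12 arrays that share the array sets.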

How the data were processed

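Day 7 thymic epithelium/stroma of 12 labelled samples was hybridised to Affymetrix mouse Gene 1.0 ST arrays. The deposited table holds linear intensities for 35556 probe sets. PLIER and Affymetrix Expression Console 1.1 stand in the submitters' processing notes and RMA with quantile normalization in the methods, so which of them gave the authors' intensities is not settled; they were used as deposited. Array medians ran from 327.5 to 345.5. The number of arrays limits the precision.

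Probe sets with 1 symbol (21789) were named from the array's annotation, and Pals1 is listed there as Mpp5. Some genes of the lists are not reported here. In R 4.3.3, limma 3.58.1 (lmFit, eBayes) was run on log2 intensities with 4 genotype means, Benjamini-Hochberg adjustment over all probe sets and a threshold of 0.05; 95% intervals are limma's. Permutation tests and correlations were computed in Python with scipy, and scripts were tested on simulated data. The genes and lists were chosen with earlier results of these data known. Named genes are the 10 genes, and from each list the 3 brightest and the 2 with the lowest unadjusted p for sex and for complement. The 5 most like Epcam, the 5 most like the mean of the genes above the reference and defining markers are named too. Outside this rule, Pkp3 and Elf3 are named for the lowest r with Cdh1 in their lists. Further claudins of the tight junction list are named beside those of the 10 genes. Alternatives were quantile normalization once more, 16 added before log2, a minimum mean signal of 200, single-symbol probe sets, the mean over probe sets, array sets as a block, an additive model, the methods' unmoderated analysis, trend and robust moderation, array weights, other references and each array left out.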

Additional observations from a re-analysis of the deposited data

Results flagged for a closer look

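Over 10 genes and 5 groupings of the arrays, 50 groups were examined for a value far from the others, and 3 were flagged; chance flags about 1 in 20 groups. Cldn3 had a signal of 216 on XXM array 2, below the 254 to 274 of the other XX arrays. Ocln had a signal of 168 on XXM array 5, above the 152 to 153 of the other XXM arrays, and above the 152 to 157 of the other XX arrays as well. All these values lay below the signal reference.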

How the results depend on the processing

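The number of genes with an adjusted p under 0.05 stayed at 0 in every contrast under every alternative that was run, the methods' unmoderated analysis included, and the lowest adjusted p of any of the 10 genes was 0.344; depth is not known from intensities, and Cldn3 and Ocln were limited by signal near that of olfactory receptors. At an unadjusted p under 0.05 the counts of genes were small and moved. Quantile normalization again gave 0 for sex, the interaction, the F test and XYM minus XYF; a minimum mean signal of 200, which leaves Ocln untested, gave 0 for these 4 and for complement and 1 for XYM minus XXM; an offset of 16 gave 0 for complement; the additive model gave 0 for sex and for complement; trend and robust moderation gave 0 for complement and the interaction; and array weights gave 0 for the interaction and the F test and 1 for XYM minus XXM. The block of array sets gave 4 for complement, 2 for the interaction, the F test and XYM minus XYF, and 5 for XYM minus XXM. With each array left out in turn the counts ran from 0 to 1 for sex, complement, the interaction and the F test and from 0 to 2 for XYM minus XXM and for XYM minus XYF, and without XYM array 1 all 6 were 0. Differences near 0 changed sign. Quantile normalization again gave -0.00482 for Cldn3 and 0.000292 for Perp by complement and -0.0062 for Ocln in XXM minus XXF, and array weights gave 0.023 for Ocln in XYF minus XXF. Leaving out each array, log2 differences by sex ran from -0.0013 to 0.18 for Epcam, -0.14 to 0.059 for Cdh1, -0.058 to 0.042 for Cldn3, -0.071 to 0.0089 for Cldn4, -0.19 to 0.0075 for Tjp1, -0.13 to 0.049 for Dsg2 and -0.13 to 0.079 for Perp. By complement they ran from -0.036 to 0.16 for Cdh1, -0.043 to 0.056 for Cldn3, -0.12 to 0.079 for Tjp1, -0.040 to 0.071 for Dsp and -0.12 to 0.094 for Perp, and for Ocln from -0.075 to 0.071 in XYF minus XXF and from -0.011 to 0.039 in XXM minus XXF. The differences of Ocln, Cldn7 and Dsg2 by complement kept their direction, but ran from 0.098 to 0.21, from 0.12 to 0.18 and from 0.083 to 0.26. Of the 10 genes' median the range was -0.068 to 0.054 by sex and 0.022 to 0.11 by complement. Of the correlations, the median r of the 45 pairs was 0.28 with set means subtracted, 0.27 with genotype means subtracted, 0.37 over arrays 1 to 8, a choice made after seeing the data, and 0.31 without the 2 arrays farthest from the median, and ran from 0.057 to 0.27 with each array left out. In the same order without the last, the 10 pairs among Epcam, Cdh1, Tjp1, Dsp and Dsg2 had 0.18, 0.81 and 0.36. Their 15 pairs with Cldn3, Cldn4 and Cldn7 had 0.31, -0.42 and 0.45, beside -0.24 with quantile normalization again. Cdh1 and Dsg2 had 0.83, 0.92 and 0.81, and 0.78 without the 2 farthest arrays. The number of pairs with an adjusted p under 0.05 was 0 with set means or genotype means subtracted and over arrays 1 to 8, and 0 to 5 with each array left out. With genotype means subtracted, values were shuffled only within genotypes of 2 to 4 arrays. This allows few rearrangements, so p-values could hardly be small enough to pass. That 0 is therefore not read as a loss of correlation. The cause of the changes between these alternatives was not tested. The array numbers of the labels are not shared between genotypes, so arrays were matched by set, as the block, and not by number.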
